A study of Mus musculus with 2 samples.

Results

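GATA4 occupied sites (OS) at CpG-rich promoters made up 338 of the 4409 GATA4 OS of adult mouse liver (7.67%). They are the OS whose midpoint lies within 1 kb of the transcription start site (TSS) of a protein-coding transcript, where the 1 kb centred on the nearest such TSS has a GC content of 55% or more and a CpG observed/expected ratio of 0.6 or more. The ratio divides the number of CpG dinucleotides by the number that the C and G content alone would give. The 338 OS lay at 334 genes, of which Cpox, Gadd45a, Ddit3 and 2610101N10Rik held 2 OS each. Another 313 OS, at 302 genes, also lay within 1 kb of a TSS but missed at least 1 of the composition limits, and are called CpG-poor promoter OS here. The other 3758 OS lay farther from every such TSS.

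GATA4 ChIP-seq, which sequences the DNA pulled down with an antibody against GATA4 (here C-20), was carried out on whole liver of C57BL/6 x Sv129 mice 2 to 3 months after birth by the labels (the study's methods give a slightly older range), and the labels name no allele or treatment. Input DNA from liver of the same strain and age served as background and has no list of its own. By the study's methods the ChIP had 2 biological replicates, each pooled from the livers of 2 mice, and the authors merged them into 1 list of OS, so no value per replicate can be given. Whole liver holds hepatocytes beside endothelial and other cells, and the OS do not tell in which of them GATA4 was bound. The study also tested sites at factor X, FOG1, HNF4α and HNF6 by ChIP and PCR. There GATA4 was almost fully lost after Gata4 was excised from hepatocytes, and its authors place GATA4 at these genes in hepatocytes only. The p-values below compare OS or genes within this 1 list, and they cover the spread between sites and not between mice.

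Every OS carries the same score of 1000, so the number of an OS in the list (1 is the first) was used for order. For the reproducibility step the study's methods ranked SPP peaks by their signal, but the files do not say whether the numbers keep that order, and the depth behind a single OS is unknown.

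Many promoters of vertebrate genes lie in CpG islands, stretches of sequence that are rich in C, G and CpG and are mostly free of DNA methylation. Such promoters often belong to genes that are active in most cell types, whereas promoters of genes restricted to 1 tissue more often lack an island. GATA factors are zinc finger proteins that bind WGATAR (W is A or T, R is A or G), and GATA4 is the family member known for roles in heart, gut and liver.

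The following sequences come from OS at these promoters. Which of their bases GATA4 contacted was not tested. Each is the reference sequence of mm9 (NCBI Build 37), 5′ to 3′ on the strand of the gene, with the GATA word in capitals. A word on the opposite strand appears as its reverse complement, so that AGATAA is seen as TTATCT. The first set holds 7 of the OS with the lowest list numbers that contain WGATAR, as 30 bases around the match nearest to the midpoint. Only that match is in capitals, and the stretch of Atf3 also holds a further match, AGATAG, in lower case.
BC031781 (chr1:182780947-182780976, plus strand): gccacgggcagcTTATCAcccccagccaaa
Slc25a23 (chr17:57199978-57200007, minus strand): tcctcctgatcgTTATCTttagtggcgcgg
Ip6k2 (chr9:108685773-108685802, plus strand): cagctttgcagtTTATCAcagaatgaatac
Atg4d (chr9:21069610-21069639, plus strand): cccattggtctgAGATAAgggcccccaggg
Atf3 (chr1:193007390-193007419, minus strand): cggctcccagccTGATAAggagatagaggg
Eif3d (chr15:77801595-77801624, minus strand): gggccactctccAGATAAcgatcagccaga
Tcf3 (chr10:79896657-79896686, minus strand): cgccgcgtaggaAGATAGttcctaagtctt

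The words were found on either strand of the gene. The next set holds 5 of the leading OS that lack WGATAR and contain CGATAA, the same core after a C instead of an A or T (TTATCG on the opposite strand).
Got1 (chr19:43599162-43599191, minus strand): catacaagcctcCGATAAgatcctcttctc
Man1b1 (chr2:25188224-25188253, plus strand): ttgcgcaacgacCGATAAgacgcggcgcgt
Ift20 (chr11:78349880-78349909, plus strand): cctagtgggcagTTATCGcgtgttgcatct
Pop7 (chr5:137943671-137943700, minus strand): aaggccataagcTTATCGgttccggcttgg
Mbnl1 (chr3:60305146-60305175, plus strand): accggcgcgcggCGATAAgaggctgcacgg

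A further set shows 3 leading OS without WGATAR that contain AGATTA or AGATTG on either strand, in which the core is GATT.
Zc3h6 (chr2:128792942-128792971, plus strand): ctcacacccatcAGATTGctgcctccgctg
Cdc42bpb (chr12:112616020-112616049, minus strand): gtgcgccacccgCAATCTcggtttcgcact
Ccrn4l (chr3:51028459-51028488, plus strand): cgtcctggtgccTAATCTccttcagcaccg

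At a few promoters the words lay close together. The whole OS at the upstream site of Cpox, at Atf1 and at Macf1 each held 3 WGATAR matches and lay outside annotated exons.
Cpox (chr16:58669445-58669569, plus strand): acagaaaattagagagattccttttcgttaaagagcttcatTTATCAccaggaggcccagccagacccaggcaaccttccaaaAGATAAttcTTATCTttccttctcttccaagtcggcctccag
Atf1 (chr15:100057457-100057613, plus strand): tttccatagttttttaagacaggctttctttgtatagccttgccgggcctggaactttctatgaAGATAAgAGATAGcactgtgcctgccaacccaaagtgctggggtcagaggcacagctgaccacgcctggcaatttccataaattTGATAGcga
Macf1 (chr4:123341421-123341576, minus strand): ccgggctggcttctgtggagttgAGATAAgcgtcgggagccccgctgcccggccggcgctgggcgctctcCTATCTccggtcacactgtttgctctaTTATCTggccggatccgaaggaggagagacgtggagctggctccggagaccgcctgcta

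In contrast, the whole OS of 1110020G09Rik, number 865 in the list, held no GATA and neither AGATTA nor AGATTG, and so has no capitals. It did hold TAATCA, which is TGATTA on the opposite strand, a word not used for the classes below.
1110020G09Rik (chr15:9000129-9000276, plus strand): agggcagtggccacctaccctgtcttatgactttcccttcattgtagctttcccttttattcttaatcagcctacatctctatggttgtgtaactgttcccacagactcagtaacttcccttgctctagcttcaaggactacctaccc

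To place these OS in the genome, promoters with and without a site were counted. Of 9624 protein-coding genes with a CpG-rich TSS, 334 were the nearest gene of a CpG-rich promoter OS (3.47%, Wilson 95% interval 3.12 to 3.86). Of 12741 protein-coding genes with no CpG-rich TSS, 238 were the nearest gene of a CpG-poor promoter OS (1.87%, 1.65 to 2.12). These shares are the background against which gene groups are read below. None of the 338 OS lay on chromosome X, and only 2 of the 313 CpG-poor promoter OS did. The share of all CpG-rich TSS on that chromosome was not computed. The midpoint fell outside annotated transcripts in 163 OS (48.2%), in an intron in 86 (25.4%), in an untranslated part of an exon in 63 (18.6%), in an exon of a non-coding transcript in 18 and in a coding exon in 8.

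GATA4 sat mostly just upstream of the TSS. The median midpoint was at -66.5 bp along the gene, with quartiles at -224.75 and 25.5 bp, and 100 OS (29.6%) fell in the 100 bp before the TSS against 39 in the 100 bp after it. The OS of Degs1 (dihydroceramide desaturase) was centred on the TSS itself. That of Mbnl1, a splicing regulator, and the OS of Cpox with the lower list number were centred 1 bp upstream, and those of Spty2d1 and Rpl13 at -3 and 2 bp. Of the 337 OS not centred on the TSS, 237 lay upstream (70.3%, 65.2 to 74.95), more than the 50% of an even split (exact binomial test, two-sided, adjusted p = 2.69e-13, Benjamini-Hochberg over 14 tests). With the peaks of the other caller, MACS2, the share was 54.0% and no longer passed (same exact test, adjusted p = 0.0897). The median MACS2 peak over these OS was 881.5 bp wide and the median OS 182 bp.

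No difference in position from CpG-poor promoters passed the test. The upstream share at CpG-poor promoters was 65.7% (Fisher's exact test, adjusted p = 0.37). The share within 250 bp of the TSS was 62.1% (210 of 338 OS, 56.9 to 67.1) at CpG-rich and 65.2% (204 of 313) at CpG-poor promoters, a difference that did not pass (Fisher's exact test, adjusted p = 0.59).

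**Figure D1:**
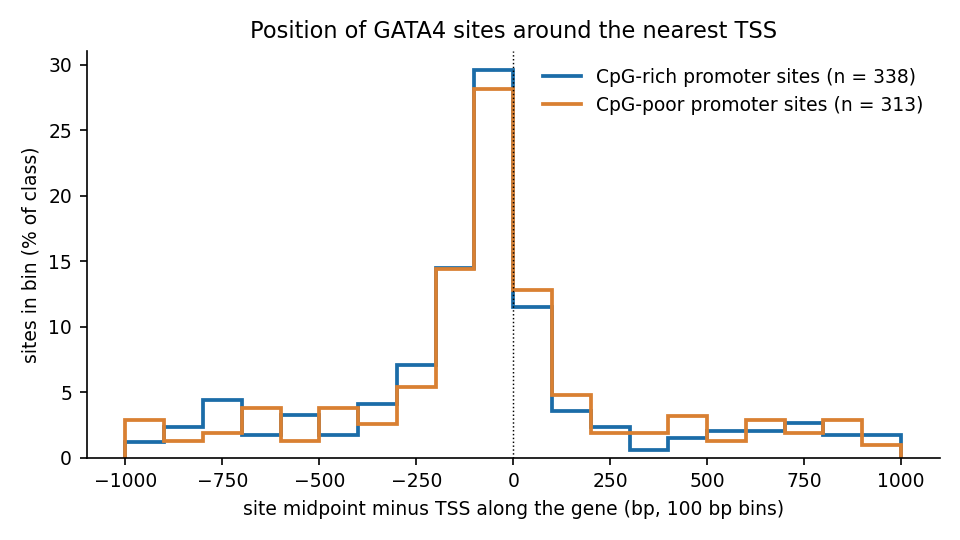
Share of OS (% of the class) in 100 bp bins of the distance from the OS midpoint to the nearest TSS, negative values upstream, for the 338 CpG-rich (blue) and 313 CpG-poor (orange) promoter OS. Both lines peak in the 100 bp before the TSS, at 29.6% and 28.1%.

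**Figure D2:**
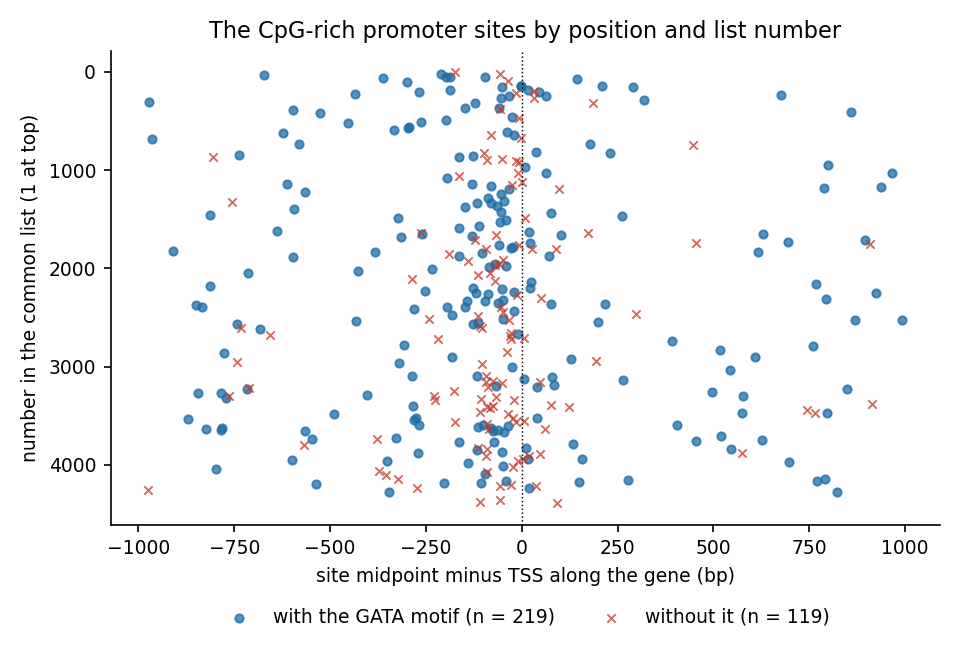
Each of the 338 CpG-rich promoter OS by its distance from the TSS in bp (horizontal) and its number in the common list (vertical, 1 at the top). Blue points are the 219 OS with WGATAR and red crosses the 119 without; OS of both kinds gather just upstream of the TSS.

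WGATAR was found in 219 of the 338 OS (64.8%, 59.6 to 69.7). That was less often than at CpG-poor promoters, where 251 of 313 OS (80.2%, 75.4 to 84.2) held it (difference -15.4 percentage points, Fisher's exact test, two-sided, adjusted p = 4.05e-05). It was also less often than away from promoters, with 3185 of 3758 OS (84.8%; Fisher's exact test, adjusted p = 7.22e-17). The GC content of the OS moved with these shares. Its median was 61.9% in CpG-rich promoter OS, 53.4% in CpG-poor promoter OS and 48.6% in OS away from promoters, and its part in the difference was not tested.

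WGATAR was more frequent in the OS than in the same kind of promoter without one. In windows of 200 bp around the midpoint, 65.1% of CpG-rich promoter OS held WGATAR (59.9 to 70.0), against 6.38% of 8420 CpG-rich promoters without a common OS, taken at the median offset of the OS from the TSS. The ratio of both shares was 10.2. At CpG-poor promoters 79.6% of OS and 23.8% of 13245 promoters without one held the motif, a ratio of 3.34. The excess over unoccupied promoters was thus 58.7 percentage points at CpG-rich and 55.7 at CpG-poor promoters. The unoccupied CpG-rich windows had a median GC content of 67.5% and those of the OS 61.8%, so the windows were not alike in composition. Around the OS themselves, sequence displaced by 500 bp (a window as wide as each OS, to its right) held WGATAR in 64 of 338 cases (18.9%). In 176 pairs only the OS held it and in 21 only the window (exact McNemar test, two-sided, adjusted p = 1.56e-30). With MACS2 peaks and windows as wide as they are, the shares were 71.0% and 61.3% (adjusted p = 0.000177 by the same exact test). MACS2 peaks at CpG-rich promoters had a median width of 876.5 bp with a common OS and 892 bp without. A window displaced by 500 bp therefore often overlapped its own peak, so this contrast partly compares the same sequence.

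**Figure D3:**
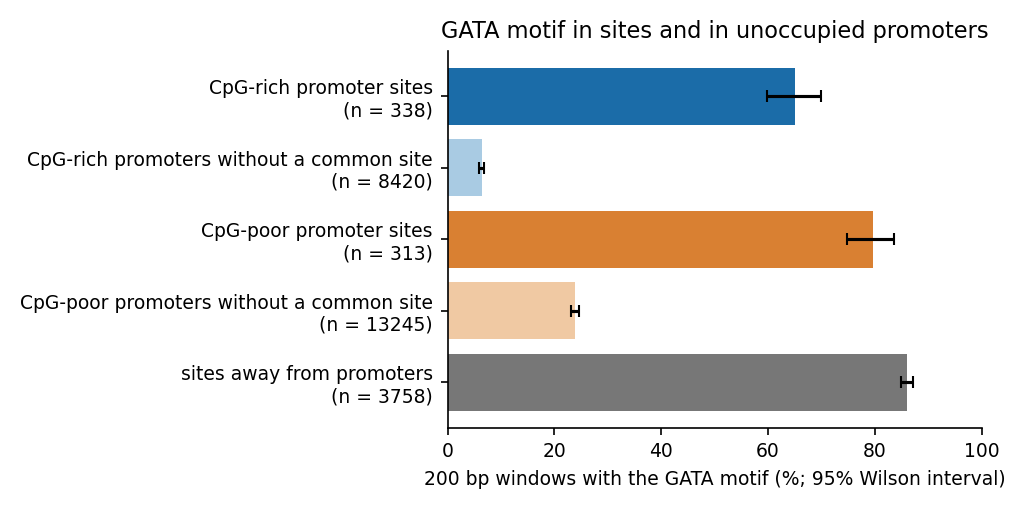
Share of 200 bp windows with WGATAR (%), with 95% Wilson intervals, in OS (dark bars) and in promoters of the same class without a common OS (pale bars). CpG-rich promoter OS stand at 65.1% and unoccupied CpG-rich promoters at 6.38%.

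Most OS held a single match. There was 1 WGATAR in 180 OS, 2 in 27, 3 in 8 and 4 in those of Tcf3, Ccdc50, Timm8b and Gm20503, while 119 had none. At CpG-poor promoters 62 OS had none, 165 had 1, 64 had 2, 16 had 3 and 6 had more. AGATAA was the most common form at CpG-rich promoters (130 of 274 matches, 47.4%), followed by AGATAG (54), TGATAA (51) and TGATAG (39). The longer word AGATAAG was in 19.8% of the 200 bp windows of the OS and 0.321% of those of unoccupied CpG-rich promoters.

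The motif lay near the centre of the OS as SPP placed them. In the 219 OS with WGATAR, the nearest match was a median of 17.5 bp from the midpoint. It was within 25 bp in 136 of them (62.1%, 55.5 to 68.3) and in 149 of 251 (59.4%) at CpG-poor promoters (Fisher's exact test, adjusted p = 0.666). With the wider MACS2 peaks the shares were 11.7% and 20.5%, and the difference passed (Fisher's exact test, adjusted p = 0.00212). No strand was preferred beyond the spread: 88 of the 180 single matches (48.9%, 41.7 to 56.1) read in the direction of the gene (exact binomial test against 50%, adjusted p = 0.823).

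**Figure D4:**
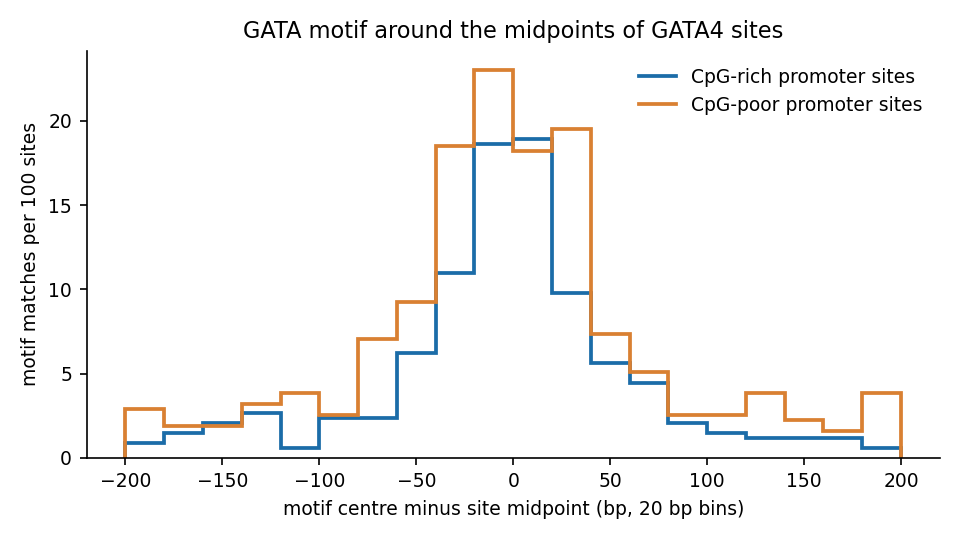
WGATAR matches per 100 OS in 20 bp bins of the distance from the OS midpoint (bp), for CpG-rich (blue) and CpG-poor (orange) promoter OS. Distances run along the genome and were not turned to the strand of the gene. At CpG-rich promoters the central bins reach 18.6 and 18.9 matches per 100 OS.

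The 119 OS without WGATAR were not without related words. These words were chosen after the sequences had been seen, and no test was run on them. Taking the first of several classes that applied, 35 OS held CGATAA or CGATAG, 10 held GGATAA or GGATAG, 13 held GATA after A or T but followed by C or T, 26 held AGATTA or AGATTG, 6 held another GATA and 29 held none of these. The nearest CGATAA or CGATAG was a median of 23.5 bp from the midpoint in those 35 OS, and the nearest AGATTA or AGATTG 16.5 bp in those 26. By comparison, a word placed anywhere in an OS of median width would lie a median of about 46 bp away (45.5 and 46.4 bp for the OS of both groups).

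In the 200 bp windows that lacked WGATAR, the word CGATAA was present in 23 of 118 at the OS (19.5%) and in 0.507% of 7883 at CpG-rich promoters without a common OS. AGATTA or AGATTG was present in 44 of 118 (37.3%) and in 4.07%. Either or both were present in 64 of 118 (54.2%) against 4.58%. TGATTA, which was not among the classes above, was present in 14 of 118 (11.9%) and in 1.18%. CpG-poor promoter OS without WGATAR showed the same words, with CGATAA in 20.3% and AGATTA or AGATTG in 25% of 64 windows. For these windows no share in unoccupied CpG-poor promoters was computed. Over all windows of that class, AGATTA or AGATTG was in 17.3% of OS and 12.8% of unoccupied promoters, where the same words were in 21.3% and 4.22% at CpG-rich promoters. Among all windows at CpG-rich promoters, CGATAA was 17.0 times, AGATTA 8.24 times, AGATTG 3.59 times and CGATAG 3.27 times as frequent in OS as in unoccupied promoters, next to 25.1 times for AGATAA. At CpG-poor promoters the ratios were 7.30 for CGATAA, 5.96 for CGATAG, 1.66 for AGATTA and 1.01 for AGATTG.

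Words of common promoter factors and of some liver factors were scanned in the same windows on both strands, as a description without tests. The GC box GGGCGG, bound by SP and KLF factors, was in 49.4% of the OS windows and in 71.8% of unoccupied CpG-rich promoters, while at CpG-poor promoters the shares were 21.4% and 20.7%. The ETS word CCGGAAG was in 16.3% and 15.4%, the CCAAT box (ATTGG on the opposite strand) in 27.5% and 29.1%, and the E-box CACGTG in 8.88% and 8.49%. The unoccupied windows were richer in GC, as given above.

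List numbers spread over the whole list, from 3 to 4392 with a median of 2391. Among the leading 2204 of the 4409 common OS lay 152 of 338 OS (45.0%, 39.8 to 50.3), against 41.2% of CpG-poor promoter OS (Fisher's exact test, adjusted p = 0.48) and 51.2% of OS away from promoters (adjusted p = 0.054). OS with WGATAR were among the leading 2204 in 108 of 219 cases (49.3%) and those without in 44 of 119 (37.0%), which did not pass after adjustment (p = 0.0304, adjusted p = 0.054, Fisher's exact test). Several other definitions of the class or of the motif brought both of the latter contrasts past the threshold. The share of OS with WGATAR was 72.6% (61.4 to 81.5) among the first 1102 OS of the list, then 69.6% and 64.4% over equal numbers of OS, and 55.6% (45.7 to 64.95) from number 3307 onward. At CpG-poor promoters it was 84.8%, 84.1%, 76.7% and 77.6%.

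**Figure D5:**
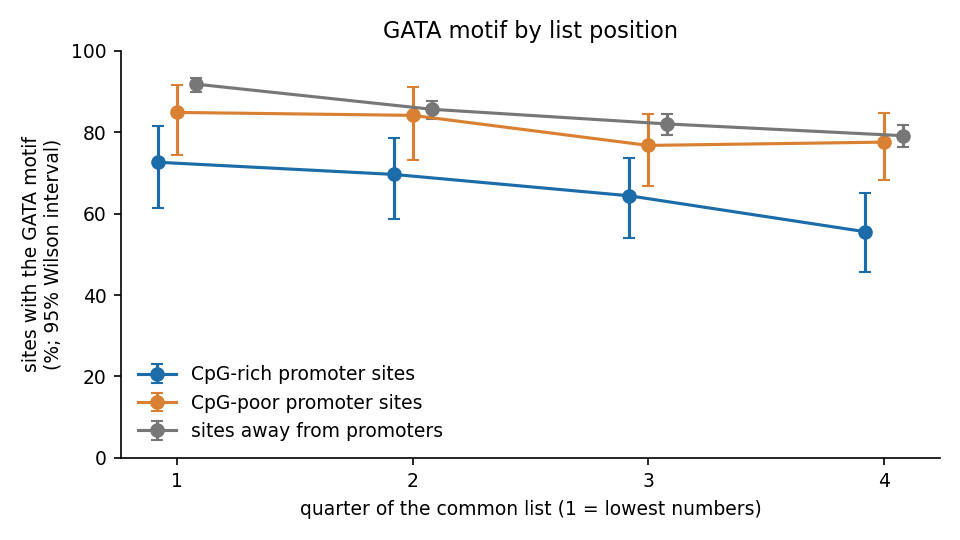
Share of OS with WGATAR (%), with 95% Wilson intervals, in 4 successive parts of the common list (1 holds the lowest numbers) for CpG-rich promoter OS (blue), CpG-poor promoter OS (orange) and OS away from promoters (grey). CpG-rich promoter OS go from 72.6% in the first to 55.6% in the last.

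SPP peaks at CpG-rich promoters were met by a MACS2 peak more often than those elsewhere. Of 348 SPP peaks placed there by the same rule, 338 overlapped a MACS2 peak by at least 1 bp (97.1%, 94.8 to 98.4). The share was 92.6% of 338 SPP peaks at CpG-poor promoters (Fisher's exact test, adjusted p = 0.0201) and 91.1% of 4125 away from promoters (adjusted p = 5.54e-05). With a CpG ratio of 0.75 as the limit, the first difference no longer passed (Fisher's exact test, adjusted p = 0.389). The MACS2 peaks over CpG-rich promoter OS were a median of 881.5 bp wide, compared with 663 bp at CpG-poor promoters and 598 bp elsewhere. The part of peak width in the overlap was not tested. Counted from the MACS2 list the order was the other way, with 41.0% of 576 MACS2 peaks at CpG-rich promoters overlapping no common OS, against 27.1% at CpG-poor promoters and 23.5% elsewhere, a difference that was not tested. SPP widths were a median of 182, 203 and 189 bp in the same order.

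The surroundings of these genes were searched for further OS. Of the 334 genes, 127 (38.0%, 33.0 to 43.3) had a further OS with its midpoint 1 to 50 kb from the TSS, compared with 119 of 302 (39.4%) at CpG-poor promoters (Fisher's exact test, adjusted p = 0.802). Most of the 127 had 1 further OS (82 genes), 36 had 2, and Zbtb39 had the most, 6. A TSS of a gene on the other strand within 1 kb, as at promoters shared by both directions, was present for 46 of the 334 (13.8%) and for 19.3% of 8421 CpG-rich promoters without a common OS. These shares are not on the same count. Each OS was given only its nearest gene, whereas promoters without an OS were counted 1 per gene, so that a shared promoter could count for both genes. The difference was not tested and cannot be read as a lack of shared promoters.

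The leading OS belonged to genes of varied cell functions. Number 3 lay at Zc3h6, which encodes a CCCH zinc finger protein (chr2:128792790-128793136, midpoint 175 bp upstream of the TSS), and number 22 at Got1, the cytosolic aspartate aminotransferase (chr19:43599000-43599304, 57 bp upstream). Both lacked WGATAR. BC031781 (25), the mitochondrial carrier gene Slc25a23 (32), the inositol phosphate kinase gene Ip6k2 (47) and the autophagy protease gene Atg4d (52) followed in list number, each with 1 match. Atf3, a stress-induced transcription factor, was number 55 with 2 matches (chr1:193007256-193007553). The translation initiation factor subunit Eif3d (59), the lipid homeostasis gene Arv1 (73) and the endoplasmic reticulum mannosidase Man1b1 (89) completed the leading 10. Of these 10 OS, 7 held WGATAR and 9 lay upstream of the TSS.

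Groups of genes were also picked by function after the list had been read, so they describe the 334 genes and carry no test. All genes of each function were not counted, so no share can be set against the 3.47%, and the counts of OS with WGATAR stand beside the 64.8% of all 338 OS and are no trait of a group. Genes of heme synthesis and of iron-sulphur cluster assembly formed a small group. Cpox, which encodes coproporphyrinogen oxidase, held an OS on its TSS (number 147, chr16:58670169-58670471) and another 814 bp upstream (number 2179, chr16:58669445-58669569), each with 3 WGATAR matches and each under a MACS2 peak of its own. Fech, the ferrochelatase that completes heme, had an OS 119 bp upstream (number 2254). The iron-sulphur assembly genes Glrx5 and Isca1 had OS at -333 and -565 bp (numbers 594 and 3653). All 5 of these OS held WGATAR and had their midpoint upstream of the TSS, though that of Cpox number 147, at -1 bp, spanned the TSS. The words of 4 OS described here and in the next paragraphs are shown as 30 bases each.
Cpox (chr16:58670313-58670342, plus strand): cagggtgcagtcTTATCTgctctttccggg
Glrx5 (chr12:106270558-106270587, plus strand): ctcgcgcctgccCTATCAtcttggcgtatc
Ddit3 (chr10:126727843-126727872, plus strand): tcttgaggtcagTTATCTtgagcctaacac
Tal1 (chr4:114729281-114729310, plus strand): cgaggcggctccTTATCTcggcggcgcaca

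Genes of cell stress formed another group, with 15 OS at 13 genes, of which 12 OS held WGATAR. Ddit3 (CHOP, a factor of the unfolded protein response) had OS at 19 and -844 bp from its TSS (numbers 1632 and 3267), and Gadd45a (a DNA damage response gene) at -16 and 797 bp (213 and 3472). In each of these genes both OS lay under 1 MACS2 peak, of 1559 bp at Ddit3 and 1844 bp at Gadd45a. Herpud1, Edem3 and Derl1, of the degradation of misfolded proteins in the endoplasmic reticulum, had OS at -24, -87 and -327 bp, each with 1 AGATAG. Jun, an AP-1 subunit, had an OS at 12 bp (number 3825) under the widest MACS2 peak of all 338, 2883 bp.

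Transcription factor genes were present as well. The 16 picked, with 15 of their OS holding WGATAR, included Tcf3 (an E protein, number 104, 4 matches), Ctcf (chromatin architecture, number 1973, -40 bp), E2f4 (cell cycle, 1188, -32 bp) and Runx1 (1710, -123 bp), the last without WGATAR. The 19 metabolic genes picked included Por, the electron donor of cytochromes P450 (204, -269 bp), Ldha (lactate dehydrogenase, 229, -436 bp) and Ttpa, the vitamin E transfer protein of liver (231, 677 bp downstream), each with 1 match. The 12 RNA processing genes included Lsm4, Ddx41 and Srsf1 at numbers 156, 249 and 260, all with WGATAR.

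Gene lists written for liver biology, with earlier results of these data known, are read against the 3.47% of all genes with a CpG-rich TSS. Endothelial transcription factors had an OS at 3 of 16 such genes: Tal1 (number 1471, 262 bp), Fli1 (2010, -235 bp) and Sox7 (3004, -25 bp), each with 1 WGATAR. Of the lysosomal genes 3 of 19 had one: Npc2, which exports cholesterol (184, 16 bp, 3 AGATAA matches), Asah1, the acid ceramidase (206, 44 bp), and Gaa, the acid alpha-glucosidase (2396, -55 bp, no WGATAR). Genes of MAP kinase cascades had 4 of 33 (Mapk6, Mapk7, Map2k2 and Dusp7), each with 1 match, and ribosomal protein genes 5 of 59 (Rpl37, Rpl10a, Rpl19, Rpl8 and Rpl13).

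Further lists had 1 or 2 such genes, or none. Nuclear receptors had 2 of 24, Rara (retinoic acid receptor, number 1458) and Nr3c1 (glucocorticoid receptor, number 4158), and genes of glucose and insulin response 2 of 21, Cish and Gsk3a. Proteasome subunits had 2 of 28 (Psmc6 and Psmb2). Clock genes had 1 of 18 (Csnk1d), TGF-beta and BMP signalling 1 of 24 (Tgfbr3, number 912, no WGATAR) and cholesterol and lipid regulators 1 of 22 (Insig1, 617 bp downstream of its TSS). No CpG-rich promoter OS was counted at 13 liver-enriched transcription factors, 13 Kruppel-like factors and 6 GATA and FOG factors with a CpG-rich TSS. The same held for 17 Hippo pathway genes, 10 endothelial surface proteins and 11 aminoacyl-tRNA synthetases with a CpG-rich TSS. OS elsewhere at the genes of these lists were not counted here, and the study reports GATA4 occupancy at FOG1, HNF4α and HNF6. A count of 0 allows a share of up to 23.1%, 23.1%, 50%, 17.6%, 30% and 27.3% for these lists, so at this size none was shown to differ from the 3.47%. Only 2 of the genes for hepatocyte plasma proteins had a CpG-rich TSS, and neither had an OS there.

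Among genes that the study listed or amplified, 4 were at these promoters. The study's lists of changed genes hold only genes with a GATA4 OS nearby, so an OS was given beforehand. The genes listed or amplified were not counted, so no share can be set against the 3.47% of all genes with a CpG-rich TSS. Ahctf1, a nuclear pore protein gene (number 514), had 1 WGATAR in an OS centred 262 bp upstream of the TSS. The OS of 1810055G02Rik (952) was centred 800 bp downstream and held 2 AGATAA, and that of Gpr155 (3475) was centred at 574 bp and held 1. The OS of Cish, an inhibitor of cytokine signalling (2048, -82 bp), had none.

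Values just inside and just outside the limits of the class lay close together. Just inside the GC limit were Zfp369 and Rsrc2, both at 55%, and just outside Gpr108 at 54.9% and Tnfrsf9 at 54.8%. On the CpG ratio Sord (0.601) and Spnb2 (0.602) were just inside, Parvb (0.597) and Abhd8 (0.595) just outside. On distance Snrk (992 bp) and Mtap7d1 (974 bp) were just inside, Golga7 (1004 bp) and Pkdcc (1014 bp) just outside. Of the 313 CpG-poor promoter OS, 76 missed the GC limit alone, 72 the CpG ratio alone and 165 both.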

How the data were processed

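GATA4 ChIP-seq and input DNA of whole mouse liver were analysed as 3 deposited peak lists. Per the study's methods and the submitters' processing notes, the authors aligned reads to mm9 with Bowtie 0.12.7, kept uniquely placed reads, called peaks with SPP (4811) and MACS2 2.0.10 (5867) on both replicates and their merged reads, set thresholds by IDR, and intersected the lists with bedtools 2.16.1, keeping SPP coordinates (4409). The deposited score of every peak, set by the authors, is 1000, so list number replaced it. Depth per sample was not computed, since the files hold no counts.

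Sites were assigned to TSS of protein-coding transcripts of GENCODE M1 on NCBI Build 37 (46022 TSS), with coordinates made 1-based. WGATAR was matched exactly on both strands. Shares were compared by two-sided exact tests (Fisher, binomial, McNemar) with Benjamini-Hochberg adjustment over 14 tests at 0.05, with 95% Wilson intervals for counting error only. Unoccupied promoters were represented by 1 window of 200 bp per gene (longest protein-coding transcript) at the median offset of the sites, -66 bp for CpG-rich and -48 bp for CpG-poor promoters. Named genes were the 10 lowest numbers, the 5 richest in WGATAR, the 5 nearest the TSS, members of 18 gene lists, genes of the study's tables, genes with 2 sites and those at each limit; others were chosen after their values were seen. The result of 1 gene list and a few sequences are not reported here. The members and lists were chosen with earlier results of these data known. Scripts, tested on simulated data, ran under Python 3.11.15 with pandas 2.3.3, scipy 1.17.1, statsmodels 0.14.6, pysam 0.24.0 and matplotlib 3.10.9. Alternatives changed the composition limits and window, the TSS set, the reach, the list, the sequence scanned, the motif, the displaced window, and the distance or overlap counted.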

Additional observations from a re-analysis of the deposited data

Results flagged for a closer look

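One result concerns MACS2 peaks outside the common list, which entered the comparisons above only where MACS2 peaks replaced the common OS. Of 576 MACS2 peaks at CpG-rich promoters, 236 (41.0%, Wilson 95% interval 37.0 to 45.0) overlapped no OS of the common list. The share was 27.1% (23.2 to 31.5) of 431 MACS2 peaks at CpG-poor promoters and 23.5% (22.3 to 24.7) of 4860 away from promoters. The 236 peaks had a median width of 892 bp, close to the 876.5 bp of the MACS2 peaks at CpG-rich promoters with a common OS, and a median number of 4656 of 5867 in the MACS2 list. WGATAR was present in 142 of the 236, and in 71.0% of all 576, which include the 236. Windows as wide as the 576 peaks, displaced by 500 bp and often overlapping them, held it in 61.3%. At this width the motif is thus common beside the peaks too, and these shares were not compared for the 236 alone. The difference between classes was not tested.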

How the results depend on the processing

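Over 19 alternative settings, each applied to the results it bears on, 153 values were recomputed, of which 121 counted as the same. For a contrast this means that direction and side of the threshold were kept. For the number of OS, which has neither, it means that the number changed only within a set limit. WGATAR was less frequent at CpG-rich promoter OS under all 12 alternatives, by -18.7 to -11.0 percentage points against CpG-poor promoters (adjusted p 2.24e-09 to 0.0323) and by -25.3 to -11.9 against OS away from promoters, and it exceeded the displaced windows under all 14 by 9.72 (MACS2 peaks) to 53.6 points. The displaced windows of MACS2 peaks often overlapped the peak itself, as given above. The number of OS was 576 with MACS2 peaks and 140 within the leading 2000 common peaks.

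Other contrasts changed their side of the threshold, and the cause was not tested. The share in the leading part of the list (the first 2204 OS, or the same part of another list) against OS away from promoters passed with a CpG ratio of 0.75 (-10.0 points), GC of 50% (-7.00), a 500 bp composition window (-7.31), all transcripts of protein-coding genes (-6.91) and longest transcripts (-6.84). The contrast of OS with and without WGATAR passed with GC of 50% (15.4 points), all transcripts (13.1), longest transcripts (13.1), any base within 1 kb (13.03), MACS2 peaks (27.7) and WGATA or GATAR (16.9).

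Directions of contrasts that had not passed turned in several cases. The share in the leading part against CpG-poor promoters became -3.16 points with a ratio of 0.75, -0.37 with all transcripts, -4.11 with MACS2 peaks and -3.49 in the leading 2000. The share within 250 bp became 5.02 with GC of 50%, 7.29 with the 500 bp window, 0.81 with all transcripts, 0.29 with any base within 1 kb, 4.25 with MACS2 peaks and 0.23 when 100 bp was counted. WGATAR within 25 bp became -3.19 with GC of 50%, -7.85 with the 500 bp window, -1.41 with all transcripts and -8.74 with MACS2 peaks, where it passed (Fisher's exact test, adjusted p = 0.00212). The strand contrast became 3.44 within 500 bp of the TSS, and the upstream contrast with CpG-poor promoters -4.25 with MACS2 peaks.

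With MACS2 peaks the upstream excess over 50% was 4.02 points (no longer passing), and genes with a further OS within 50 kb became fewer at CpG-rich promoters (-8.00 points, passing, Fisher's exact test, adjusted p = 0.028). With a ratio of 0.75 the difference in MACS2 support from CpG-poor promoters was 2.08 points and no longer passed. MACS2 support was not computed for the MACS2 list or the leading 2000. No paired analysis was possible because the labels give 1 ChIP and 1 input sample without replicate numbers. The depth behind each OS is unknown, so its effect could not be computed.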
